A study of Mus musculus with 12 samples.

Results

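T cells in developing mouse liver were selected as barcodes with at least 2 UMIs (unique molecular identifiers, 1 per captured transcript) summed over Cd3d, Cd3e and Cd3g and none of Cd79a, a B cell receptor gene. Barcodes under 1000 UMIs, or with mitochondrial transcripts above 15%, were left out first. The gate kept 4372 of 184493 barcodes in 9 droplet libraries, 2114 in embryos (E16.5) and 2258 at postnatal day 3 (P3). The label did not hold for most of them. In 3531 members (80.8%) S100a8 and S100a9, the 2 subunits of the neutrophil protein calprotectin, made up at least 6% of UMIs, and Cd3e was at 0 in 7 of the 9 libraries. These members are called S100-rich here. A further 739 (16.9%) carried less than 2% of these UMIs and are called S100-low, and 102 (2.33%) lay between. Lck, Trbc1 and Trbc2 were lower in S100-rich than in S100-low members in each of the 9 libraries. The split was made after the values were seen.

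CD3 gamma, delta and epsilon chains are the signalling subunits that travel to the cell surface with the T cell receptor. The receptor itself is a pair of variable chains, alpha with beta or gamma with delta. The kinase Lck phosphorylates the CD3 chains after the receptor binds, Zap70 docks on them, and Lat and Skap1 carry the signal further. Natural killer (NK) cells and other innate lymphocytes make granzymes without a rearranged receptor and are known to transcribe some receptor loci. Neutrophil precursors, abundant in fetal and newborn liver, make granule proteins in waves, from primary granule enzymes such as Mpo through Camp, Ngp and Ltf to late genes such as Retnlg and Mmp8.

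The livers came from crosses of heterozygotes for Nodder, a missense allele of the Notch ligand Jag1 carried here as Jag1+/+, Jag1Ndr/+ and Jag1Ndr/Ndr. The labels give 2 individuals per genotype and stage, genotyped from tail or limb, with homozygotes at P3 picked by jaundice. Cells were depleted of dead cells at both stages, and the enzyme mix TrypLE was used only on the E16.5 livers. At E16.5 the libraries were Jag1+/+ replicate 1, a single matrix deposited under both Jag1+/+ replicate 2 and Jag1Ndr/+ replicate 2 (the shared library, counted as 1 sample), Jag1Ndr/+ replicate 1, and Jag1Ndr/Ndr replicates 1 and 2. Values for E16.5 follow this order throughout. At P3 many barcodes recurred under several labels. Libraries A and B came from the 2 Jag1+/+ labels but recurred under Jag1Ndr/Ndr labels, so their genotype is unclear. The barcodes of library B also included all 15754 that were labelled Jag1Ndr/+ replicate 2. Library C was Jag1Ndr/Ndr replicate 1 without the barcodes of A, and library D was Jag1Ndr/+ replicate 1. Passing barcodes numbered 15024 to 29034 per library, with median depths of 2961 to 9256 UMIs. Across the 9 libraries members shared a barcode in only 2 pairs, 1 barcode in each.

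Most members passed the gate through Cd3d without Cd3g, although the genes lie head to head. In GRCm38, Cd3g occupies chr9:44969572-44980431 on the minus strand and Cd3d chr9:44981786-44987339 on the plus strand, with 1354 bases between their starts. Cd3e follows at chr9:44998740-45009627 on the minus strand. Of the members, 3214 carried Cd3d alone, 510 Cd3g alone and 97 any Cd3e. These genes are in the gate's own sum, so the counts describe how members were admitted. The 250 bases before each start of the divergent pair are shown because most members carried 1 gene of it without the other. They are from RefSeq GRCm38.p6, chr9:44981536-44981785 (plus strand) and chr9:44980432-44980681 (minus strand), with motif matches in capitals.
Cd3d: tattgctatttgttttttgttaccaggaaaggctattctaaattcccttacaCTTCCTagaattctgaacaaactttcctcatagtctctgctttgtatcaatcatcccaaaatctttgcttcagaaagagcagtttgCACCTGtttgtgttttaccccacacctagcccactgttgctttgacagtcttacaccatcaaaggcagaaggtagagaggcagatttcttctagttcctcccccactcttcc
Cd3g: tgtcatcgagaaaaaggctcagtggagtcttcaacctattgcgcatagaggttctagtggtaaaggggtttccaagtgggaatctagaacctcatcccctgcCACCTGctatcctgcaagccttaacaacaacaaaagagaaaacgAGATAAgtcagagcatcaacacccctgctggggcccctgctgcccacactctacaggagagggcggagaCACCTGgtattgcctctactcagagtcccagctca
Motifs known for lymphoid and myeloid factors were searched on both strands, and no match overlapped another here. Shares are of 32851 RefSeq promoter windows, each the 250 bases before a start. The E box letters CANCTG were found at 1 place in Cd3d and at 2 in Cd3g, and in 44.8% of windows. The ETS letters AGGAAG were found at 1 place in Cd3d and nowhere in Cd3g, and in 29.5% of windows. The GATA letters AGATAA were found at 1 place in Cd3g and nowhere in Cd3d, and in 9.99% of windows. The RUNX letters TGTGGT and, separately, the C/EBP letters TTGCNNAA were in neither and in 14.05% and 9.56% of windows. These matches describe letters only.

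At the gate's edge, 5281 barcodes had a Cd3 sum of 1 and stayed outside. Inside, 2240 members had a sum of 2, 1041 a sum of 3, and 1091 a sum of 4 or more. Another 576 barcodes with enough Cd3 UMIs were left out by Cd79a. Barcodes just outside and just inside were alike in S100 content: the median share of S100a8 and S100a9 UMIs per library was 13.3% to 26.5% at a sum of 1 and 15.2% to 26.0% at a sum of 2. The low group stood apart at P3, where 601 members lay under 0.5%, 7 between 0.5% and 2%, and 38 between 2% and 6%. At E16.5 no gap separated the groups, with 105, 26 and 64 members in these ranges and 175 from 6% to 10%.

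**Figure D1:**
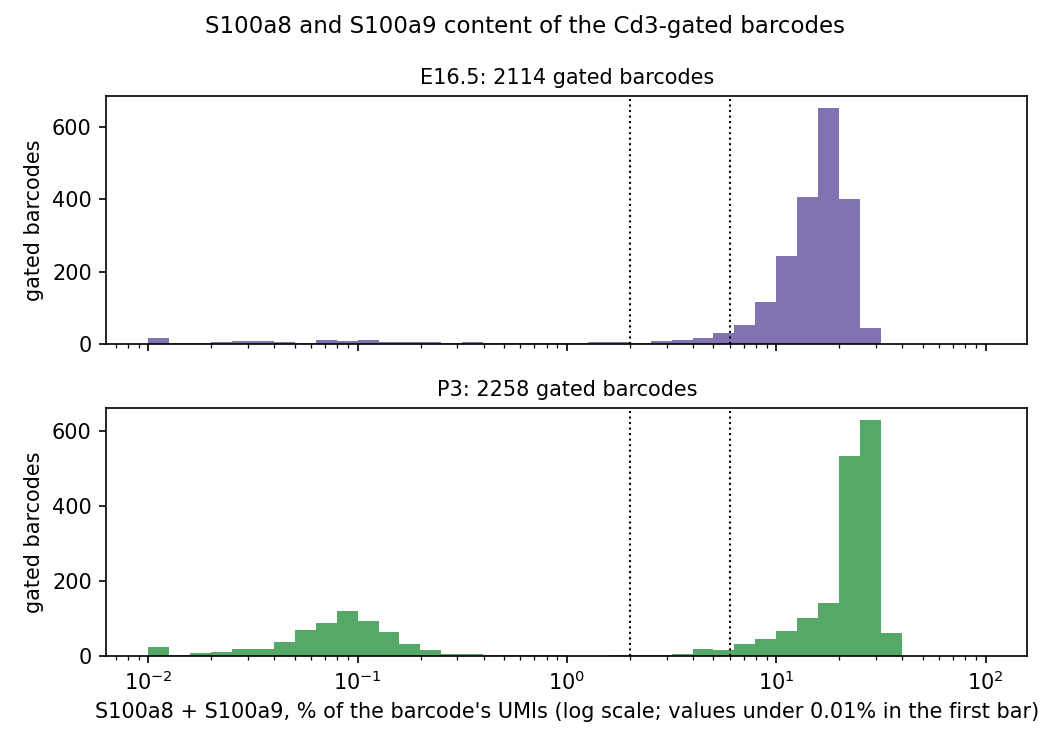
Histograms of the share of each member's UMIs from S100a8 and S100a9 (x axis, percent) against the number of gated barcodes (y axis), for E16.5 (2114) and P3 (2258). Dotted lines mark 2% and 6%. Most members at both stages lie above 6%, and P3 has a separate peak near 0.

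The gated share of passing barcodes varied widely at both stages. At E16.5 it was 1.70%, 3.01%, 2.51%, 0.409% and 1.39%, and at P3 it was 4.21%, 3.65%, 2.95% and 1.58% in libraries A to D. Its mean was 1.80% ± 1.01 (SD, n = 5) at E16.5 and 3.097% ± 1.13 (SD, n = 4) at P3, a difference of 1.29 percentage points (exact two-sided permutation test, p = 0.127). The stages overlapped, and this share mostly counted S100-rich barcodes. With each barcode thinned to 1000 UMIs the difference was 0.376 points (exact permutation p = 0.00794), and without libraries A and B at full depth it was 0.463 points (exact permutation p = 0.619).

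S100-rich members made up 94.1%, 91.5%, 91.8%, 53.3% and 92.4% of the gate at E16.5 and 81.3%, 71.4%, 68.2% and 43.3% at P3. Their share of passing barcodes was 1.63% ± 0.979 (SD, n = 5) at E16.5 and 2.18% ± 1.15 (SD, n = 4) at P3 (difference 0.549 points, exact permutation p = 0.452). The stages did not separate on this measure. S100-low members numbered 12, 31, 37, 31 and 20 at E16.5 and 152, 172, 135 and 149 at P3. Their share of passing barcodes was 0.117% ± 0.0461 (SD, n = 5) at E16.5 and 0.865% ± 0.115 (SD, n = 4) at P3. This difference of 0.748 points, an alternative chosen after the data were examined, gave an exact permutation p of 0.00794, the smallest that 5 against 4 libraries allow, and every P3 library lay above every E16.5 library. Other sets rose as shares of passing barcodes too, so the rise is not particular to S100-low members. The NK and ILC gate, defined below, held at most 0.0339% at E16.5 and 0.121% to 0.319% at P3. The B gate, also defined below, held 5.39% to 10.1% and 13.9% to 22.0%. All barcodes with at least 6% S100 UMIs made up 5.13% to 9.16% and 10.6% to 21.6%. Median depth of S100-low members was 6485 to 18431 UMIs at E16.5 and 3872 to 8246.5 at P3.

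**Figure D2:**
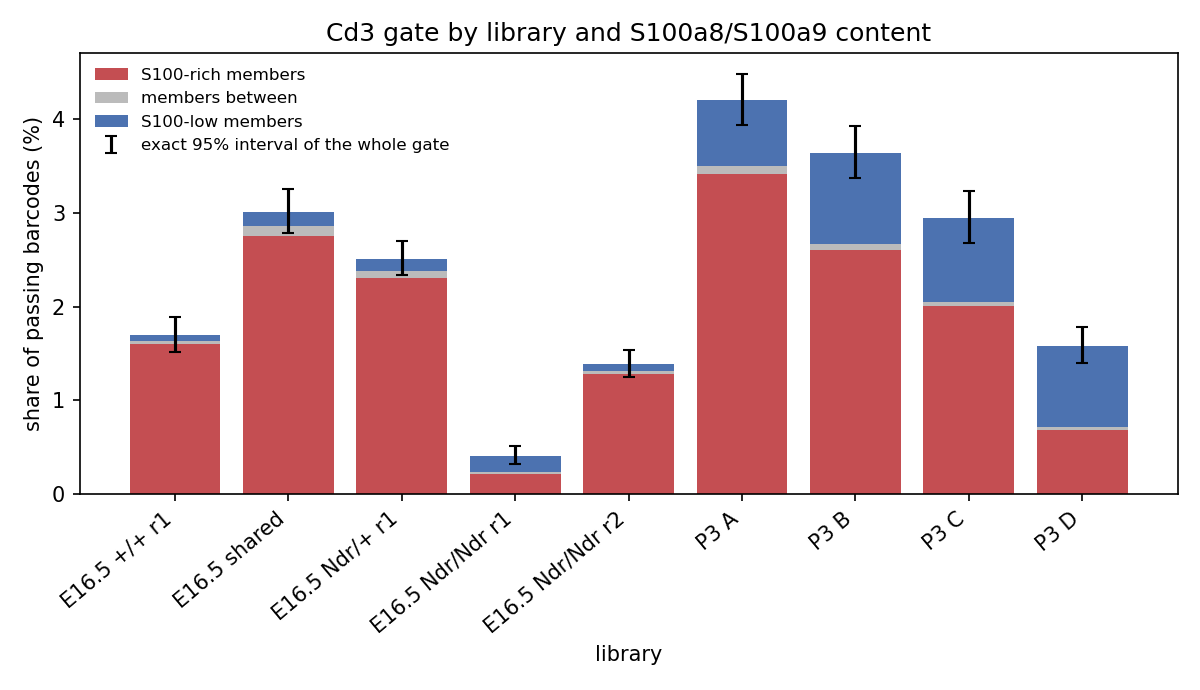
Stacked bars of gated barcodes as a percentage of passing barcodes (y axis) in each of the 9 libraries (x axis), divided into S100-rich, between and S100-low members. Error bars are exact 95% binomial intervals of the total, for counting error only. The S100-low part is 0.865% of passing barcodes on average at P3 against 0.117% at E16.5, while the total varies mainly with the S100-rich part.

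The S100-rich members carried Cd3d with little else of the receptor. Levels are in CPM, a gene's UMIs summed over the members of a library and scaled to a common total. Cd3d, which placed barcodes in the gate, was at 208, 302, 240.2, 170.1 and 236 CPM at E16.5 and at 259, 347, 387 and 489 CPM at P3. Cd3g reached only 10.5, 14.7, 17.8, 37.3 and 18.6 CPM at E16.5 and 26.0, 25.8, 13.2 and 38.8 CPM at P3. Cd3e was at 0 in every E16.5 library and at 4.50, 0, 0.549 and 0 CPM at P3. Thus Cd3d exceeded both of its partner chains in all 9 libraries.

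Lck and the alpha chain region were scarce, while beta chain regions differed between libraries. Lck was at 1.28, 2.07, 0.918, 6.22 and 0 CPM at E16.5 and at 6.19, 4.05, 6.04 and 7.77 CPM at P3. In the B gate (at least 2 Cd79a UMIs and no Cd3 UMI), used as a lymphoid reference, Lck ran from 6.06 to 11.02 CPM at E16.5 and from 13.1 to 20.6 CPM at P3. Trac, the alpha chain constant region at chr14:54220521-54224206, was at 0 in 8 libraries and at 0.131 CPM in E16.5 Jag1Ndr/+ replicate 1. Trbc2, a beta chain constant region, was at 0.256, 0, 1.57, 29.0 and 0.258 CPM at E16.5 and at 23.5, 25.5, 7.68 and 1.94 CPM at P3. Summed over the list, receptor constant regions ran from 0.256 to 43.6 CPM at E16.5 and from 12.6 to 48.9 CPM at P3 in S100-rich members. In the B gate they ran from 7.66 to 10.7 and from 5.16 to 10.4 CPM, so every P3 library of S100-rich members lay above it, as did its highest E16.5 library. Cd247, the CD3 zeta chain, did not pass 5.82 CPM in any library.

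Granule genes were abundant in the same barcodes. The 12 neutrophil markers summed to 207920 to 232200 CPM at E16.5 and to 289670 to 324000 CPM at P3, and 12 erythroid markers to 133320 to 240210 CPM and to 39653 to 73249 CPM. In E16.5 Jag1Ndr/+ replicate 1 the erythroid sum was the higher of the pair. S100a8 alone ranged from 73968 to 86256 CPM at E16.5. Camp, the precursor of cathelicidin, ranged from 15126 to 21314 CPM at E16.5 and from 21311 to 24586 CPM at P3, and Ngp from 14987 to 18861 and from 34426 to 44708 CPM. Lcn2, which binds bacterial siderophores, ranged from 6928 to 9461 and from 15247 to 17677 CPM. Gzma, a granzyme of cytotoxic lymphocytes, was at 0, 1.13, 0.393, 371 and 0.258 CPM at E16.5 and at 246, 454, 65.3 and 728 CPM at P3. Gzma thus stood apart in Jag1Ndr/Ndr replicate 1 and at P3, where S100-low members were a larger share of the gate. Scrublet, a doublet caller, marked 4.42% to 7.39% of S100-rich members at E16.5 and 5.98% to 13.04% at P3, and whether doublets or free RNA carry the Gzma was not tested.

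Cd3d levels differed by granule genes in all barcodes with at least 6% S100 UMIs, gated or not. In all such barcodes it was at 70.0, 104, 106, 14.1 and 70.5 CPM at E16.5 and at 65.2, 80.5, 79.9 and 73.9 CPM at P3. Where S100 genes gave under 0.5% of UMIs, Cd3d was at 0.226 to 0.764 CPM at E16.5 and at 1.87 to 3.38 CPM at P3. Among S100-rich barcodes, those with at least 5 UMIs of the primary granule genes Elane, Mpo and Prtn3 had Cd3d at 13.3, 18.9, 25.2, 1.32 and 12.98 CPM at E16.5 and at 10.5 to 15.4 CPM at P3. Of the rest, those with at least 20 UMIs of Camp and Ngp had 97.1, 140, 121, 18.6 and 92.7 CPM at E16.5 and 91.9 to 103.03 CPM at P3. Of those still left, barcodes with at least 10 UMIs of Retnlg and Mmp8, the late genes, had 181, 338, 199, 20.4 and 208 CPM at E16.5 and 209 to 302 CPM at P3.

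The order from primary to late genes was the same in all 9 libraries. These levels describe the gene that the gate used and carry no test. The late class was the shallowest, with 6004.5 UMIs at the median in E16.5 Jag1+/+ replicate 1 against 18236 in its primary class. Between 3.00% and 35.3% of all S100-rich barcodes of a library fell inside the gate. Of the barcodes under 0.5% S100, 0.0631% to 0.180% fell inside it at E16.5 and 0.947% to 1.25% at P3.

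**Figure D3:**
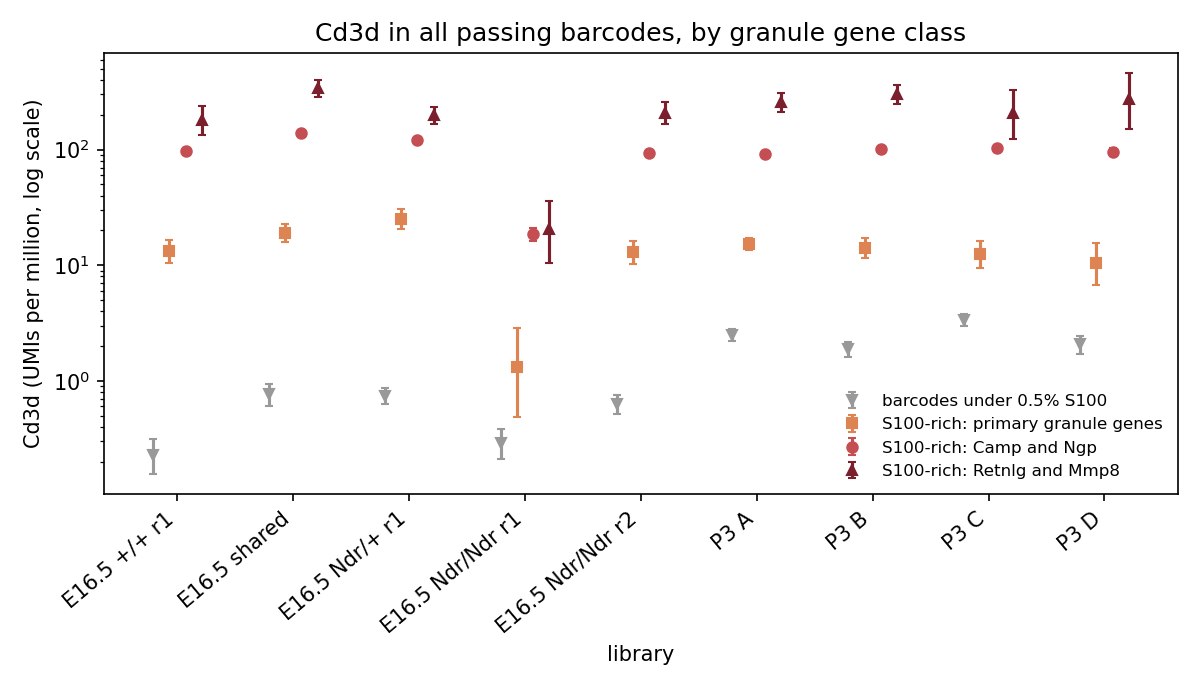
Cd3d in CPM (y axis, log scale) over all passing barcodes of each library (x axis), by granule gene class. In each library Cd3d is lowest under 0.5% S100, higher in the primary granule class, higher again with Camp and Ngp, and highest with Retnlg and Mmp8. The last step is within counting error in E16.5 Jag1Ndr/Ndr replicate 1. That library lies below the other E16.5 libraries in each S100-rich class.

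A single E16.5 library differed from the rest in this transcript. In Jag1Ndr/Ndr replicate 1, Cd3d in all S100-rich barcodes was at 14.1 CPM (exact Poisson 95% interval 12.4 to 15.97, counting error only) against 70.0 to 106 CPM in the other 4 libraries, Jag1Ndr/Ndr replicate 2 included at 70.5 CPM. On log2(CPM + 5) it lay 2.25 below the mean of the other 4, whose SD was 0.315. This is a description of a gate gene in a library picked for its low gated share. Genes were ranked if their mean over the other 4 libraries was 30 CPM or more, which favours genes low in this library. Among these 2973 genes the next were Mt2 at -1.25, Eif3j1 at -1.13 and Mt1 at -1.10. Their median was -0.0952, and 885 of them lay below all 4 other libraries. Genes near Cd3d differed by less: within 500 kb, Atp5l was at -0.258, also below all 4 other libraries, Arcn1 at -0.236, Ddx6 at -0.0171 and Kmt2a at 0.00645. The library had 1334 S100-rich barcodes with a median of 11250 UMIs, inside the range of the other E16.5 libraries for depth. Only 3.00% of them entered the gate, against 25.02% to 35.3% elsewhere at E16.5, which the gate's use of Cd3d sets in part.

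The S100-low members were rich in granzymes and carried receptor constant regions. Cd3g, not Cd3d, was their leading gate gene, at 372, 332, 232, 385 and 330.1 CPM at E16.5 and at 694, 519, 522 and 994 CPM at P3. Cd3d was at 20.1, 151, 102, 47.8 and 102.95 CPM at E16.5 and at 128, 49.3, 167 and 136 CPM at P3. Cd3e was at 0, 12.9, 4.73, 0 and 10.7 CPM at E16.5 and at 71.0, 5.48, 65.8 and 82.6 CPM at P3. The order of the 3 chains was Cd3g, Cd3d, Cd3e in every library, as molecule counts with no division by length.

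Lck was present in every library, at 116, 69.0, 21.3, 74.8 and 63.9 CPM at E16.5 and at 186, 208, 255 and 201 CPM at P3. Trbc1 was at 261, 220.1, 139.6, 247 and 213 CPM at E16.5 and at 493, 427, 478 and 624 CPM at P3. Trbc2, a near-identical copy whose reads may be divided with it, was at 392, 259, 173, 513 and 376 CPM and at 697, 764, 783 and 886 CPM. Trac was scarce, at 5.02, 0, 0, 3.18 and 0 CPM at E16.5 and at 15.2, 1.83, 11.8 and 8.85 CPM at P3. Trdc, the delta chain constant region at chr14:54142851-54148868, was at 20.1, 0, 4.73, 7.96 and 7.10 CPM at E16.5 and at 129, 29.8, 81.6 and 88.5 CPM at P3. The delta region exceeded the alpha region in every library except the E16.5 shared library, where both were at 0. At E16.5 the sums of S100-low members held 196165 to 619620 UMIs, so both regions rest on few molecules there.

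Coreceptors and thymocyte genes were scarce. The 3 coreceptors summed to 0 to 7.96 CPM at E16.5 and 1.97 to 19.2 CPM at P3. The 10 thymocyte genes summed to 11.8 to 31.9 CPM at E16.5 and 5.90 to 23.2 CPM at P3. Cd8a was at 0, 0, 0, 4.78 and 0 CPM at E16.5 and at 10.9, 7.31, 1.97 and 10.3 CPM at P3. Cd4, the helper coreceptor, was at 0, 0, 0, 3.18 and 0 CPM at E16.5 and at 3.62, 0, 0 and 4.42 CPM at P3. Foxp3, of regulatory T cells, and Dntt, which adds bases at receptor joints, had no UMI in any member. Over the 4372 members, a count of 0 allows up to 3 UMIs.

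Cytotoxic genes were the most abundant lymphoid transcripts. Gzma was at 8222, 2580.5, 2697, 4917 and 5531 CPM at E16.5 and at 13616, 14528, 15238 and 22233 CPM at P3, against 0.157 to 1.76 and 12.6 to 25.4 CPM in the B gate. Gzmb was at 919, 337, 201, 422 and 419 CPM at E16.5 and at 1485, 1075, 1124 and 1531 CPM at P3. Nkg7, a cytotoxic granule membrane protein, was at 284 to 616 CPM at E16.5 and at 1141 to 1296 CPM at P3. Ncr1, an NK and innate lymphoid receptor, was at 266, 142, 87.5, 232 and 88.7 CPM at E16.5 and at 200.0, 278, 357 and 162 CPM at P3. Ncr1 did not pass 1.38 CPM in the B gate, and its stages overlapped in the members. Markers of other cells were also measured: Hba-a1, an adult alpha globin, was at 14143 to 38869 CPM at E16.5 and at 8221 to 17787 CPM at P3, and Camp at 95.4 to 1838 and at 72.3 to 116 CPM. The 12 neutrophil markers summed to 763 to 11224 CPM at E16.5 and to 1256 to 2771 CPM at P3. Whether these come from free RNA was not tested.

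**Figure D4:**
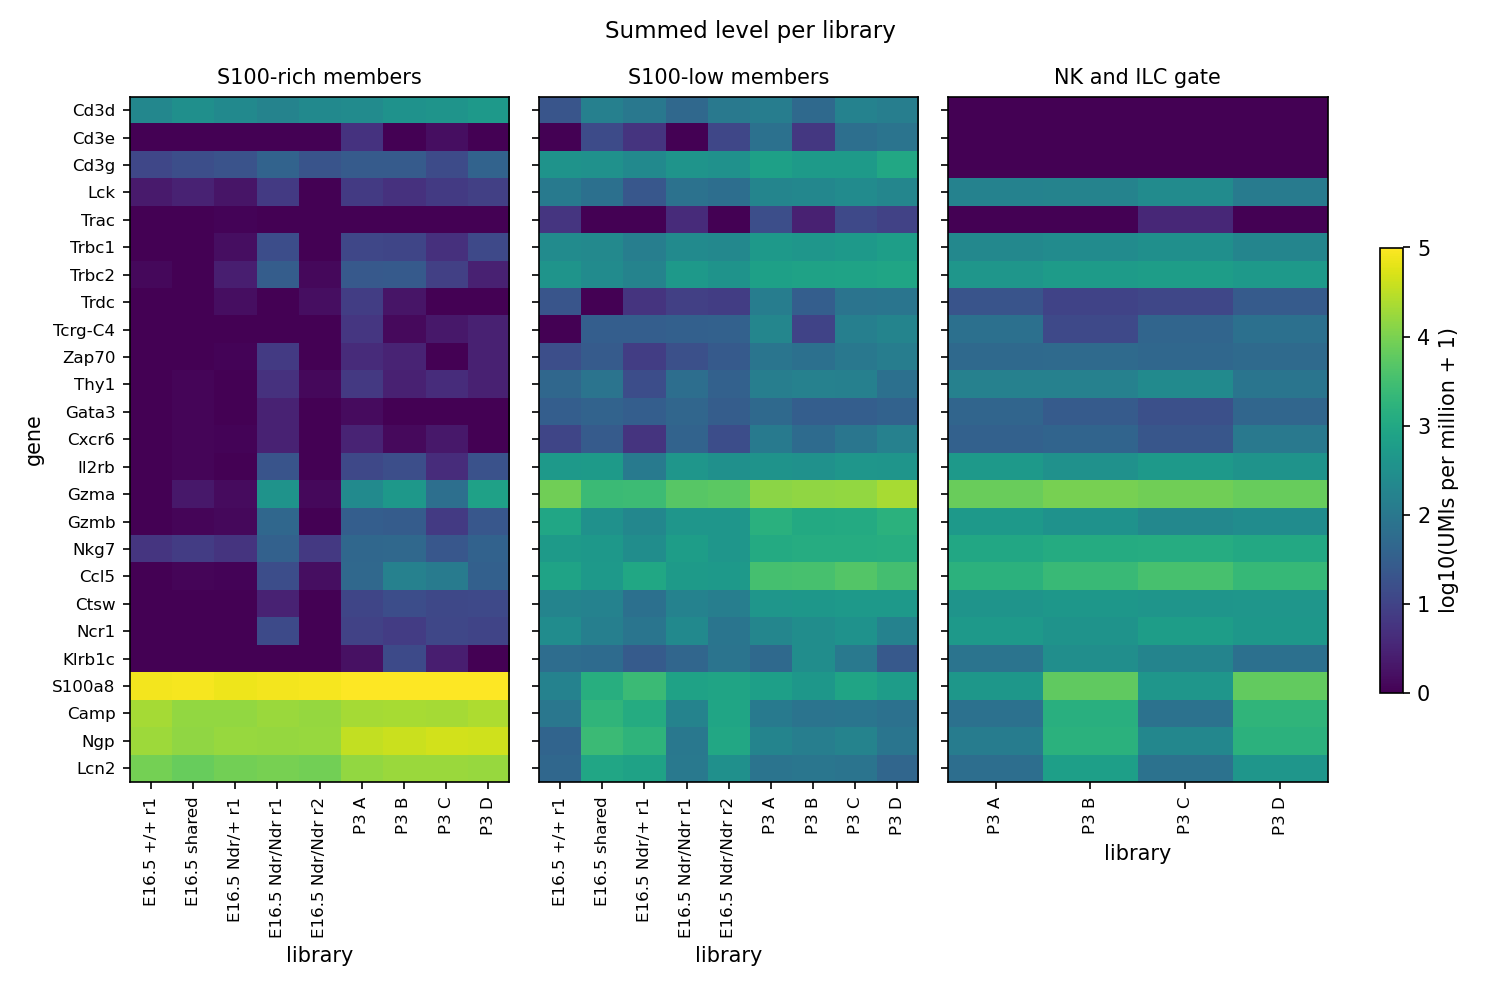
Heat map of log10(CPM + 1) for gate, receptor, signalling, cytotoxic and granule genes (y axis) in the S100-rich and S100-low members of each of the 9 libraries and in the NK and ILC gate of the 4 P3 libraries (x axis). S100-rich members share Cd3d with S100-low members and have less Lck, Trbc1 and Trbc2 (the NK and ILC gate has no Cd3 UMI by definition), while S100-low members and the NK and ILC gate share Gzma, Nkg7 and the beta chain regions.

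Because Gzma, Ncr1 and Trbc1 are also NK cell transcripts, the members were compared with an NK and ILC gate (no Cd3 UMI, no Cd79a, at least 2 UMIs over Ncr1, Klrb1c and Klre1), which held 26, 54, 48 and 23 barcodes at P3 and too few at E16.5. Over the whole gate, edgeR's quasi-likelihood test with library as a block called 1063 of 6636 genes higher in members (16%) and 1004 lower (15.1%), or 31.1% in all. The highest by the naming rule were granulocyte genes, Stfa2 at a log2 fold change of 6.03 and Stfa3 at 5.88 among them, both encoding stefins. TCR signalling genes were lower for 12 of 18 and cytotoxic genes for 9 of 17. Among S100-low members only, an alternative added after the data were examined, 21 of 5773 genes were higher (0.364%) and 5 lower (0.0866%), together 0.45%, against 404 at an unadjusted p under 0.05. None of the 18 TCR signalling genes and none of the 14 T lineage regulators tested was called. On simulated counts for the whole-gate comparison, 37 of 100 genes changed 2-fold and 85 of 100 changed 4-fold were recovered. Every gene was simulated with the same fixed spread. Sums of S100-low members are smaller than whole-gate sums, so a gene not called was not shown to be alike. Without library B the whole-gate count fell to 1118 genes, and without library C to 1100.

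All 4 receptor constant regions tested were higher in S100-low members than in the NK and ILC gate, beside 0.364% of all genes. Trdc was at 129, 29.8, 81.6 and 88.5 CPM in S100-low members and at 19.3, 9.34, 10.5 and 25.9 CPM in the NK and ILC gate (log2 fold change 2.41 ± 0.30 SE, adjusted p 4.3e-05). The ranges did not overlap. Trbc1 was at 427 to 624 CPM against 190.2 to 313 CPM (0.99 ± 0.13, adjusted p 0.0004), Trbc2 differed by 0.57 (adjusted p 0.0021) and Tcrg-C4, a gamma chain constant region, by 1.41 ± 0.23 (adjusted p 0.0015). The copies of the beta and gamma regions are near-identical, and their reads may be divided between copies. Receptor and Cd3 transcripts are parts of the same complex that the gate selected on.

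Of 16 cytotoxic and effector genes tested, 2 were higher in S100-low members than in the NK and ILC gate, 1 was lower and 13 were not called. Gzmb was at 1485, 1075, 1124 and 1531 CPM against 483, 355, 211 and 268 CPM (1.98 ± 0.18, adjusted p 0.0085). Klra5, a lectin receptor of NK cells, was higher by 1.92, Gimap7, a lymphocyte GTPase, by 1.55, Cxcr6, a chemokine receptor of liver-resident lymphocytes, by 1.15, and Ccl5 by 0.59. Tesc (2.19), H2-Q7 (1.22), Rgs1 (1.21), Abcb9 (1.18) and Fgl2 (1.09) were also called. Lower were Eomes, a T-box factor of conventional NK cells, by -1.28 ± 0.27 (adjusted p 0.021), Tmem176a at -1.14, Tmem176b at -1.11, Klf2 at -0.59 and Cmtm7 at -0.55. Of 8 NK markers tested, 1 was higher, 1 (Eomes) lower and 6 not called, with a list median of 0.242. The NK markers as a list thus did not move in 1 direction. Cxcr6 was at 109, 56.0, 90.4 and 156 CPM in S100-low members and at 34.8, 39.7, 21.1 and 104 CPM in the NK and ILC gate, higher within each library but with overlapping ranges.

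Against the B gate of all 9 libraries, 3313 of 11101 genes were higher in the whole Cd3 gate (29.8%) and 3801 lower (34.2%), or 64.1% in all. In S100-low members 1524 of 10652 were higher (14.3%) and 1709 lower (16%), or 30.4% in all. All 17 cytotoxic genes tested and 17 of 18 TCR signalling genes were higher in S100-low members. Xcl1, a chemokine for cross-presenting dendritic cells, stood at a log2 fold change of 11.64 ± 0.23 and Gzmb at 10.74. Of the T lineage regulators, 6 were higher and 7 lower: Gata3 was higher by 7.18, Tcf7 by 5.26, Tox by 4.84, Id2 by 3.94, Runx3 by 3.17 and Zbtb7b by 1.09, whereas Lef1 (-3.23), Sox4 (-3.05), Id3 (-2.33), Foxo1 (-1.91), Ets1 (-0.80), Runx1 (-0.62) and Ikzf1 (-0.29) were lower. Of 18 naive and trafficking genes tested, 7 were higher, 5 lower and 6 not called. Il7r (-3.72), the interleukin 7 receptor, and the lymph node homing receptor Ccr7 (-3.08) were among the lower ones, beside B cell precursors that use interleukin 7 signalling themselves. Of the 7 thymocyte genes, 6 were lower than in the B gate, some of which early B cells also express.

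Only 97 members carried a Cd3e UMI, 4 at E16.5 and 93 at P3, and 86 of those at P3 were S100-low. They numbered 24, 6, 24 and 32 in libraries A to D, with median depths of 8459.5, 10364.5, 7087.5 and 4651.5 UMIs. The other S100-low members at P3 had medians of 7715, 8162.5, 5703 and 3729 UMIs. Cd3e is a gate gene and this split followed inspection of the values, so the shares below are descriptions with no test.

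A Trdc or Bcl11b UMI was in a larger share of Cd3e-positive members in each P3 library. Scrublet doublets were also more common among them, at 8.33%, 16.7%, 12.5% and 15.6% against 6.25%, 13.9%, 4.50% and 1.71%, and their part in these shares was not tested. A Trdc UMI was in 66.7%, 33.3%, 62.5% and 31.2% of them, in 7.81%, 14.5%, 9.01% and 10.3% of the Cd3e-negative S100-low members, and in 0.0478% to 0.156% of B gate barcodes. With each barcode thinned to 1000 UMIs, Trdc was found in 33.3%, 0%, 20.8% and 12.5% against 0.781%, 2.41%, 4.50% and 2.56%, so the order held in all but library B with its 6 barcodes. Trbc1 was in 87.5%, 100%, 87.5% and 87.5% against 86.7%, 86.7%, 85.6% and 79.5%, nearly the same share in libraries A and C. Bcl11b, a factor that commits precursors to the T lineage, was in 37.5%, 50%, 37.5% and 34.4% against 13.3%, 7.23%, 10.8% and 9.40%, with 3.85% to 13.04% in the NK and ILC gate. Lef1, a Wnt pathway factor that B cell precursors also express, was in 16.7% to 41.7% against 0.855% to 8.11%. Trac was in 16.7%, 0%, 8.33% and 9.38% against 9.38%, 1.81%, 5.41% and 2.56%, and the order turned in library B.

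Of the 15 NK markers, 9 were in a smaller share of Cd3e-positive members in all 4 P3 libraries, none in a larger share in all 4, and 6 were mixed. Of 16 T lineage regulators, 7 were in a larger share in all 4, 2 in a smaller share and 7 mixed. The same count over all genes was not made, so these counts have no background. Cd3e-positive members had the higher median depth in each P3 library, and library B held only 6 of them. Tyrobp, the adaptor of activating NK receptors, was in 50%, 83.3%, 62.5% and 75.0% of Cd3e-positive members and in 96.1%, 99.4%, 98.2% and 93.2% of Cd3e-negative ones. Ncr1 was in 12.5%, 66.7%, 20.8% and 21.9% against 60.2%, 71.1%, 73.0% and 43.6%, and in 87.0% to 100% of the NK and ILC gate, which Ncr1 helped to define. Eomes was in 4.17%, 0%, 4.17% and 0% against 10.2%, 19.9%, 23.4% and 5.13%. Gzma stayed common in both, at 54.2% to 83.3% against 90.6% to 96.6%. Library B, with only 6 Cd3e-positive barcodes, was nearest to its Cd3e-negative members in Ncr1.

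**Figure D5:**
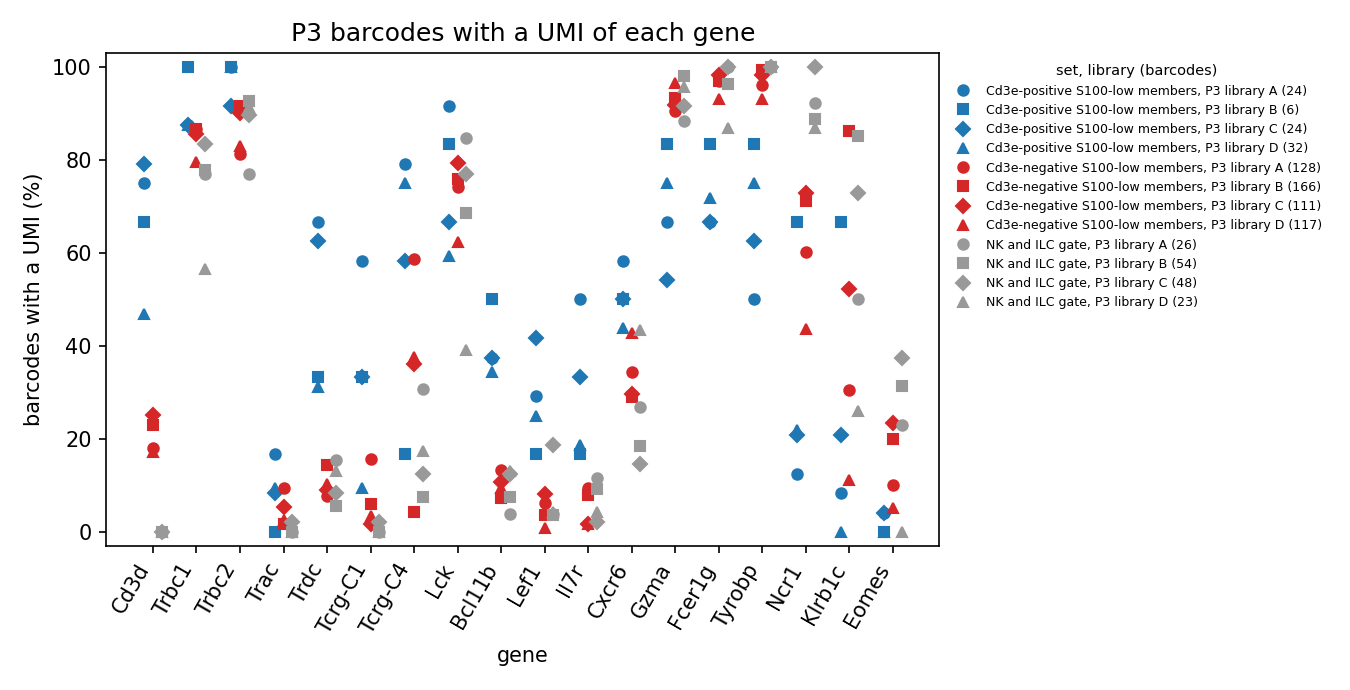
Percentage of P3 barcodes with at least 1 UMI (y axis) for 18 genes (x axis) in Cd3e-positive S100-low members, Cd3e-negative S100-low members and the NK and ILC gate, 1 point per library. Trdc, Bcl11b and Lef1 lie higher in Cd3e-positive members, and Tyrobp, Fcer1g and Ncr1 lie higher in the other sets.

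The gate at P3 was compared with the gate at E16.5 over 9909 genes. edgeR called 1818 higher (18.3%) and 1803 lower (18.2%) at P3, or 36.5% in all. TCR signalling genes rose for 11 of 19, receptor constant regions for 3 of 5 and cytotoxic genes for 10 of 18, and none of the 19 or 5 fell. S100-low members were 3.73% to 41.3% of the gate at E16.5 and 16.8% to 55.2% at P3, so the makeup of the gate moved with these lists. In a bulk sum of this kind, more barcodes of a type and more RNA per barcode cannot be told apart. Lists of other cell types moved too: 11 of 12 erythroid and 9 of 10 hepatocyte genes fell. Of 12 monocyte and macrophage genes 6 rose, and of 7 B genes 4 rose and 1 fell. The stages also differed in counting software version, in gene list and in digestion. Of the genes called higher, 77.9% were also higher in the B gate with no overlap between stages, against 31.7% of all tested. Atp6v0c went from 1.21 to 303 CPM on average in the B gate and Timm23 from 3.26 to 152 CPM, and stage and software cannot be told apart for such genes.

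Restricted to S100-low members, an alternative added later, 679 of 6305 genes were higher at P3 (10.8%) and 811 lower (12.9%), or 23.6% in all. These sums rest on 12 to 37 barcodes per library at E16.5. The makeup of the S100-low set moved with stage as well: 75%, 58.1%, 40.5%, 100% and 70% of its barcodes had a Trac, Trbc1 or Trbc2 UMI at E16.5, against 92.6% to 95.9% at P3. At 1000 UMIs per barcode these shares were 13.5% to 48.4% and 65.8% to 72.5%. Cd3e-positive barcodes were 4 of 131 and 86 of 608, and the part of this makeup in the changes below was not tested. Zap70, the kinase that docks on CD3, rose from 15.1, 25.9, 7.10, 15.9 and 24.8 CPM to 87.7, 68.8, 97.3 and 133 CPM (log2 fold change 2.23 ± 0.29 SE, adjusted p 2.2e-05). Trdc rose by 3.16 ± 0.59 (adjusted p 0.0034), with every P3 library above every E16.5 library in CPM. The E16.5 sums rest on 0 to 4 barcodes with a Trdc UMI, and the share with one overlapped, at 33.3%, 0%, 5.41%, 12.9% and 10% at E16.5 and 14.8% to 18.5% at P3. Zap70 and Trdc were low in the B gate at both stages, Zap70 at 1.10 and 1.58 CPM and Trdc at 0.0992 and 0.198 CPM on average. Trbc1 rose by 0.98 ± 0.17 (adjusted p 0.00034) and Trbc2 by 0.94 ± 0.22 (adjusted p 0.0056). Of 18 TCR signalling genes tested, 7 rose and none fell: Zap70, Lck by 1.44 ± 0.24, the adaptor Lat by 1.59 ± 0.33, the kinase Fyn by 0.78, the costimulatory receptor Cd27 by 1.36, the surface glycoprotein Thy1 by 1.21 and Cd96 by 1.30. The list's median was 0.651 beside 0.0246 for all genes tested.

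Of 16 cytotoxic and effector genes tested, 10 rose, Klrd1, the CD94 receptor chain, fell (-0.74) and 5 were not called, with a list median of 1.18. Ccl5, a chemokine of activated lymphocytes, rose from 799, 496, 942, 533 and 479 CPM to 3282, 3482, 4497 and 3208 CPM (2.19 ± 0.25). Gzma rose by 1.55 ± 0.32, Gzmb by 1.31 ± 0.30, the pore protein Prf1 by 1.82 ± 0.35, Nkg7 by 1.16 ± 0.17, the protease Ctsw by 1.47 ± 0.19, Fasl by 1.87, Cst7 by 1.50, Tbx21 by 1.20 and Klrk1 by 0.89. Ifng, Eomes, Xcl1, Ccl3 and Ccl4 were not called. Among 14 trafficking genes the integrin Itgb7 (1.20), Cxcr3 (1.20) and Cxcr6 (2.02 ± 0.44) rose, and Itga4 (-0.77), the marrow retention receptor Cxcr4 (-1.88), Cd44 (-0.74) and Cd24a (-1.78) fell.

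Of 14 T lineage regulators, Ikzf3 rose (0.98) and Satb1 fell (-0.70), shares near those of all genes tested. In the Notch list, which bears on the Jag1 allele of the cross, Notch2 fell (-2.19 ± 0.42, adjusted p 0.0012) and Myc fell (-1.27), 2 of 6 tested, with a list median of -0.910. Notch2 was at 20.1, 51.8, 33.1, 19.1 and 56.8 CPM at E16.5 and at 9.42, 12.8, 1.97 and 10.3 CPM at P3, without overlap. Notch1, the receptor known for T cell commitment, was at 60.3, 25.9, 21.3, 25.5 and 31.9 CPM and at 14.5, 20.7, 36.4 and 32.4 CPM, with overlap. Of 18 cell cycle genes, Top2a (0.47) and Mcm3 (0.56) rose and Cdk1 (-1.04) and Hmgb2 (-0.84) fell, 11.1% in each direction beside 10.8% and 12.9% of all genes tested.

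Among the genes named by size, Ccdc85b rose by 3.32 (in the B gate from 4.20 to 35.4 CPM), the interferon-induced gene Ifi27l2a by 3.03 (in the B gate from 29.4 to 331 CPM), and Ndfip1, an adaptor for ubiquitin ligases that restrain T cells, by 2.33 ± 0.20. Ndfip1 went from 29.3 to 169 CPM on average, and in the B gate from 20.9 to 77.7 CPM. Olfm4, a neutrophil granule gene, fell furthest (-7.48 ± 1.39), from 334 ± 271 CPM (SD, n = 5) to 1.75 CPM. The metallothioneins Mt2 (-4.49) and Mt1 (-3.79) and the immediate response gene Zfp36 (-3.46) also fell, Mt2 from 630 to 57.9 CPM in the B gate as well. Genes of other cell types fell with them: 11 of 12 erythroid, 7 of 9 hepatocyte, 3 of 11 neutrophil and 4 of 7 dissociation genes were lower at P3. In the B list 3 of 4 genes tested rose, with a median of 2.87, Igkc by 4.81 and Cd74 by 3.999 among them. Summed erythroid markers ranged from 115400 to 297460 CPM at E16.5 and from 39074 to 66457 CPM at P3, and the part of these other transcripts in the changes was not tested. Of the genes called higher, 83.1% were also higher in the B gate with no overlap between stages (33.6% of all tested), and of those called lower, 54.99% were also lower there (10.5% of all tested).

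S100-rich members differed between stages in 1659 of 8934 genes higher at P3 (18.6%) and 1655 lower (18.5%), or 37.1% in all. Of 12 neutrophil markers, the granule genes Ngp (1.12 ± 0.16), Ltf (0.97) and Lcn2 (0.81) rose, Mmp8 fell (-0.67, adjusted p 0.0499) and 8 were not called. Mmp25, a neutrophil surface protease, rose by 2.96 ± 0.20, from 9.50 to 78.1 CPM, and was at 0.0548 and 2.76 CPM in the B gate. Of 12 cytotoxic and effector genes tested, 7 rose, 2 fell and 3 were not called (median 2.96). Ccl5 rose by a fitted 7.16, with library means of 3.11 and 89.4 CPM, whose ratio is smaller than the fitted change. Its E16.5 level was low, and libraries were uneven: the cytotoxic list summed to a median of 32.7 CPM there and to 525 CPM at most. E16.5 Jag1Ndr/Ndr replicate 1 held only 40 S100-rich members. Others named by size were Ifi27l2a at 4.80, Ly6e at 2.80, Irf7 at 2.57 and Ifi27 at 2.30. In the B gate Ifi27l2a went from 29.4 to 331 CPM and Irf7 from 4.17 to 34.6 CPM. Of the genes called higher, 80.3% were also higher in the B gate with no overlap between stages, against 31.7% of all tested. Of 12 monocyte and macrophage markers 8 rose, while 11 of 12 erythroid and 7 of 10 hepatocyte markers fell (medians -2.40 and -1.34), and their part in the other changes was not tested. Notch1 (-0.65), Notch2 (-1.62) and the coactivator Maml1 (-1.72) fell, 3 of 5 Notch list genes tested.

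Subsets by marker were also counted over the whole gate. The share with a Trdc UMI went from 1.70% ± 2.09 (SD, n = 5) to 5.53% ± 1.93 (SD, n = 4), with an exact permutation p of 0.0317 and an adjusted value of 0.119 over the subsets tested. Zbtb16, encoding PLZF, a factor of innate-like T cells, was in 0.828% and 3.58% of members (exact permutation p 0.0159, adjusted 0.0952). After thinning to 1000 UMIs, Zbtb16 was in 0.149% and 0.594% (exact permutation p 0.103, adjusted 0.138), with overlapping ranges. Trdc, thinned likewise, was in 0.267% and 1.72% (exact permutation p 0.0317, adjusted 0.114). No subset passed 0.05 after adjustment, a bar that a single subset could hardly reach alone. The smallest exact permutation p that 5 against 4 libraries allow, 0.00794, was adjusted to 0.0952 here. Mki67 or Top2a, of dividing cells, was found in 98.8% of members at E16.5 and 61.3% at P3, and after thinning to 1000 UMIs in 51.2% and 40.7% (adjusted exact permutation p 0.119). The gap was smaller at equal depth. B gate libraries ranged between 97.2% and 99.2% at E16.5 and between 47.4% and 82.4% at P3, and after thinning 53.8% to 72.1% and 31.8% to 63.4%.

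The Nodder genotype could be compared only at E16.5, with 2 Jag1Ndr/Ndr libraries against 3 others. The gated share was 0.898% ± 0.693 (SD, n = 2) in Jag1Ndr/Ndr and 2.41% ± 0.661 (SD, n = 3) in the others, a difference of -1.51 points (exact permutation p = 0.2, the smallest possible being 0.1). The difference lay in S100-rich members, at -1.47 points, and was 0.00855 points in S100-low members (exact permutation p = 0.8). Over the whole gate edgeR called 0 of 9715 genes (0.0%), with 481 at an unadjusted p under 0.05, and DESeq2 called 25. The count was 785 without Jag1Ndr/Ndr replicate 2, 52 without Jag1Ndr/Ndr replicate 1, 25 without Jag1+/+ replicate 1 and 0 without either of the other libraries. Leaving out a Jag1Ndr/Ndr library leaves that arm with 1 library, which is assumed to vary like the others. In S100-low members 0 of 3748 were called (0.0%, 198 unadjusted) and in S100-rich members 1 of 8961 (0.0112%, 149 unadjusted). On simulated counts with these library sizes, 92 of 100 genes changed 4-fold were recovered but only 19 of 100 changed 2-fold. The simulation gave every gene the same fixed spread and left out the different gate makeup of Jag1Ndr/Ndr replicate 1. Recovery in the data themselves is therefore not known, and 2-fold differences were mostly missed even in the simulation.

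At P3 library C (Jag1Ndr/Ndr) and library D (Jag1Ndr/+) gave 1 sample per genotype and no test. The gated share was 2.95% in C and 1.58% in D, a difference of 1.36 points (95% interval 1.03 to 1.69, counting error only). The direction turned when each barcode was thinned to 1000 UMIs, with 0.366% in C and 0.511% in D (difference -0.145, interval -0.289 to -0.000438), D being the shallower library with a median of 2961 UMIs against 4671. For S100-low members it was 0.899% and 0.875%, a difference of 0.0239 points (-0.182 to 0.230), so these 2 libraries did not differ beyond counting error. S100-rich members carried the gap, at 2.01% and 0.687%.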

How the data were processed

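The deposited matrices hold UMI counts per gene and barcode from 10x Genomics libraries. Per the file headers the counts came from Cell Ranger 3.1.0 at E16.5 and 3.0.2 at P3, while the submitters' processing notes name Cell Ranger 2.1.1 with mm10, Seurat and R 4.1.2. Identical matrices were counted as 1 sample, and barcodes recurring under several P3 labels were kept in 1 library, which left 9 libraries. Nothing else in the labels pairs libraries beyond replicate numbers.

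Counts of the 22519 genes listed at both stages were summed per library and gate, for sums of at least 10 barcodes, and tested with edgeR 4.0.16 (TMM scaling, filterByExpr, robust quasi-likelihood test, Benjamini-Hochberg adjustment over all genes tested, threshold 0.05) in R 4.3.3, and with DESeq2 1.42.0 as an alternative. The gate comparisons within libraries had library as a block. Shares were compared with exact two-sided permutation tests over libraries. P-values measure the spread between libraries. Single-library intervals are exact binomial or Poisson 95% intervals for counting error only. Doublets were scored with Scrublet in scanpy 1.11.5 and kept, with their removal as an alternative. Doublets included, the sums were smallest in the library D NK and ILC gate, at 115610 UMIs.

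Genes were named by list, and by size: the 10 largest called changes in each direction with at least 50 CPM in the higher group and groups that do not overlap (same direction in every library for blocked fits), leaving out gate genes and markers of other cells. The members and lists were chosen with earlier results of these data known. The S100 split, the fits within it and the Cd3e split were added after the data were examined. The scripts were tested on simulated data with 100 genes changed 2-fold and 100 changed 4-fold. For stage, 67 and 100 were recovered with 12 false calls among 9938 genes. These simulations gave every gene the same fixed spread, so recovery in the data may differ. Gene positions are from GENCODE M21 on GRCm38.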

Additional observations from a re-analysis of the deposited data

Results flagged for a closer look

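In 32 groups of 4 or 5 libraries checked for a library far from the others, about 1 in 20 would be found by chance. Within the E16.5 gate, Jag1Ndr/Ndr replicate 1 was far above the other libraries in Cd3g, at 207 CPM, and in Lck, at 39.7 CPM. Its S100-low members were 41.3% of its gate, against 3.73% to 5.45% in the other E16.5 libraries. Neither its low gated share nor its low Cd3d in all S100-rich barcodes was among the values flagged by this check. At P3, Cd3g over the whole gate was at 563 CPM in library D, where S100-low members were 55.2% of the gate, against 131 to 191 CPM in libraries A to C. In S100-rich members, Cd3e was at 4.50 CPM in library A and at most 0.549 CPM in the other P3 libraries.

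At the main gate setting the gated share moved in opposite directions with genotype at the 2 stages. It was 1.51 points lower in Jag1Ndr/Ndr than in the other libraries at E16.5 (-1.51) and 1.36 points higher in library C (Jag1Ndr/Ndr) than in library D (Jag1Ndr/+) at P3. The difference between the stages was not tested, and P3 has 1 library per genotype. The opposite directions were not kept under 3 alternatives. After thinning to 1000 UMIs both were negative (-0.0768 and -0.145), with a Trac, Trbc1 or Trbc2 UMI both were positive (0.0390 and 0.0717), and so were those of S100-low members (0.00855 and 0.0239).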

How the results depend on the processing

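The stage difference in gated share (1.29 points) kept its direction under every alternative run. It passed the threshold with a Cd3 sum of 1 (3.57, exact permutation p 0.0397), with a required Trac, Trbc1 or Trbc2 UMI (0.793), after thinning (0.376) and in S100-low members (0.748), the last 3 at an exact permutation p of 0.00794. Without each library it was 0.922 to 1.80, and without P3 libraries A and B 0.463 (exact permutation p 0.619). The E16.5 genotype difference turned to 0.0390 with a receptor UMI and to 0.00855 in S100-low members. The difference between C and D was 0.403 at a Cd3 sum of 3, 3.42 at a sum of 1, 0.0717 with a receptor UMI, 0.0239 in S100-low members and -0.145 after thinning.

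Of the gene counts, stage gave 3621 calls, 1235 with a receptor UMI, 1490 in S100-low members, 2371 without P3 libraries A and B, and 2733 to 4544 without each library. Genotype gave 0 calls, 25 with DESeq2, 179 with no filter on low counts, 1 with a receptor UMI, 1 with doublets removed, 1 in S100-rich members, and 0 to 785 without each library. The NK and ILC comparison gave 2067 calls, 34 with a receptor UMI, 898 at a Cd3 sum of 3, 26 in S100-low members, and 1100 to 2478 without each library. With DESeq2 size factors its split was 1160 higher and 832 lower. With no filter its median log2 fold change was 0.266, against -0.0528 at the main setting. The B gate comparison gave 7114 calls, 3707 with a receptor UMI, 3233 in S100-low members and 6650 to 7171 without each library. In S100-low members Stfa2 (-1.82), Stfa3 (-1.71) and Ly6g (-0.99) reversed in sign without passing the threshold (adjusted p 0.929, 0.893 and 0.514), and the cause was not tested.

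A replicate block gave 3267 calls for stage and 42 for genotype. Correlations between the deviations of libraries with the same number ran from -0.243 to 0.204 for stage and from -0.107 to 0.129 for genotype. For stage they took both signs, so no common direction was seen. For genotype they cannot decide the question, because the Jag1Ndr/Ndr libraries deviate from their own mean as mirror images. Each other library thus gave correlations of equal size and opposite sign, such as -0.107 and 0.107 for E16.5 Jag1+/+ replicate 1. Whether libraries with the same number are truly paired was not tested. The E16.5 S100-low sets hold only 12 to 37 barcodes each.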
